A study of Homo sapiens with 24 samples.

Results

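The HER family comprises the receptor genes ERBB2, ERBB3, ERBB4 and EGFR, described here with 6 ligand genes, EGF, BTC (betacellulin), AREG (amphiregulin), EREG (epiregulin), TGFA (transforming growth factor alpha) and HBEGF (heparin-binding EGF-like growth factor). The 10 genes were chosen by symbol, and each was present among the 60617 rows of the deposited expression table. Of these 10 genes, 6 had enough counts to be tested, among 13536 genes tested in all. They were ERBB2, ERBB3, EGFR, EGF, BTC and AREG, whereas ERBB4, EREG, TGFA and HBEGF were too low.

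Polyadenylated RNA was sequenced from SKBR3, an established human breast carcinoma line with amplification of ERBB2. There were 3 groups of 8 libraries, all from cells of this 1 line, seeded at 6500 cells per cm2 in medium with 10% serum and harvested for RNA on day 7. Control cells were untreated. The Herceptin group received trastuzumab, an antibody against the HER2 protein, at 4 µg/ml, and the biosimilar group received ApoTras, for which the labels do not state clearly that the same dose applied. The series was designed to compare Herceptin with its biosimilar by the mRNAs of treated cells. No vehicle-only or unrelated antibody group was analysed here. The labels describe 8 replicates a group set up on the same day but do not tie them to separate passages or batches, so a p-value here rests on differences among these libraries alone, and those may be technical.

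HER receptors are membrane tyrosine kinases that signal as pairs after a ligand binds the outer part of the receptor. HER2, the product of ERBB2, has no known soluble ligand and is the preferred partner of the other receptors, and in cells with amplified ERBB2 its pairing with HER3 is a main route to PI3K and AKT signalling. The ligands are made as membrane proteins that proteases cut free, and EGF, TGFA and AREG bind EGFR, whereas BTC, HBEGF and EREG also bind ERBB4.

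Library totals ran from 9070186 to 12260086 expected counts. Keratin transcripts of epithelial cells were abundant in every group, with a summed level over 11 epithelial and breast markers of 12937 ± 505 CPM in control, 13926 ± 286 CPM with Herceptin and 13554 ± 482 CPM with the biosimilar (SD, n = 8 each). CPM is a count divided by the summed counts of the tested genes in its library and set to a fixed size. These sums were first scaled by the trimmed mean of M-values (TMM). The summed level of 6 leukocyte markers lay between 0.658 and 2.00 CPM in all libraries. Of 6 fibroblast markers only COL1A1 was high enough to test, at 4.40 ± 0.504 CPM in control, 3.47 ± 0.371 CPM with Herceptin and 3.45 ± 0.227 CPM with the biosimilar, and it fell with both (edgeR adjusted p = 0.00599 and 0.0059). Of 5 endothelial markers only CDH5 was, at 34.8 ± 2.38, 47.2 ± 3.71 and 45.1 ± 2.55 CPM in the same order, and it rose with both antibodies (edgeR adjusted p = 5.08e-10 and 2.82e-08), while PECAM1, VWF, KDR and TEK were too low to test. No marker of these lists was at 0 in all libraries. Of the 11 epithelial and breast markers 9 were tested, of which 4 passed as higher with Herceptin and 3 with the biosimilar. Over all tested genes 22.7% and 23.4% rose. EPCAM, KRT19, TFAP2A, TFAP2C and GRHL2 did not pass with either antibody. KRT18 was at 1868 ± 117 CPM in control, 2238 ± 78.7 CPM with Herceptin and 2180 ± 99.6 CPM with the biosimilar (log2 0.26 and 0.22, edgeR adjusted p = 1.06e-08 and 2.76e-07), and KRT7 also rose (log2 0.17 and 0.12, edgeR adjusted p = 6.75e-06 and 5.24e-04), both with fractional counts in all libraries. ESR1, the oestrogen receptor gene, was at 1.53 ± 0.45 CPM in control, 2.28 ± 0.365 CPM with Herceptin and 2.37 ± 0.368 CPM with the biosimilar, and it rose with both (edgeR adjusted p = 0.00395 and 0.00158). E-cadherin (CDH1) and the progesterone receptor gene (PGR) were too low to test. What part these markers have in the results below was not tested. Biosimilar replicates 6 and 8 lay farthest from their group, with a root mean square deviation of 0.277 and 0.275 on the log2 scale over the tested genes against 0.226 to 0.256 for the other 22 libraries.

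The sequences before the start sites of EGF, the most abundant of the ligand transcripts and one that rose, and of AREG, the tested ligand that did not pass, are shown as 2 tested ligands of EGFR on either side of the threshold. Whether their responses differed was not tested, and the AREG intervals given below contain the EGF values. Matched by symbol, 9 of the 10 genes, without ERBB3, had entries in RefSeq on GRCh38.p14, with 11 windows of 250 bases before a start site. Capitals mark matches to AP-1 (TGANTCA) in EGF, and to the cyclic AMP response element, CRE (TGACGTCA), and the TATA box (TATAAA) in AREG. The windows are chr4:109912633-109912882 and chr4:74444886-74445135, both on the plus strand, written 5′ to 3′ and ending at the base before the start site.
EGF: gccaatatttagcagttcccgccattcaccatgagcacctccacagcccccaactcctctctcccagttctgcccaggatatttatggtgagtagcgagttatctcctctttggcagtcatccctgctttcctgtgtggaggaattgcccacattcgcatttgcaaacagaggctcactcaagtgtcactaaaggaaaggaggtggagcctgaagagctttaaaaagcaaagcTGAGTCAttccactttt
AREG: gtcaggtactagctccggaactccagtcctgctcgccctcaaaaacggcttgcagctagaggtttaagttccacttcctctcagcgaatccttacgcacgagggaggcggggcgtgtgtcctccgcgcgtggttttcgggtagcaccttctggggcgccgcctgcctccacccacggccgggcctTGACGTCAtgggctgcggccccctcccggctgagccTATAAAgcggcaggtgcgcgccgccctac

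The EGF match to AP-1, the site of FOS and JUN proteins, lay 17 to 11 bases before the start site. The AREG match to CRE lay 65 to 58 bases before its start site and the TATA box 29 to 24 bases before it. Both strands were searched, also for a forkhead motif (TGTTTAC) and an ETS motif (CCGGAAGT), and no 2 of the printed matches overlapped. AP-1 was matched in 6.57% of 35116 RefSeq windows of this length, CRE in 1.65%, the TATA box in 10.7%, the forkhead motif in 2.98% and the ETS motif in 3.42%. Of the other windows, that of ERBB2 held AP-1 222 to 216 bases before the start site and the ETS motif 27 to 20 bases before it on the opposite strand and 14 to 7 bases before it. The BTC window held the forkhead motif at 231 to 225 bases and the EREG window a TATA box at 32 to 27 bases before the start. A second EGFR start site, at chr7:55109839 within the gene, had matches to AP-1 and the TATA box. The window at the start of the EGFR gene and the windows of TGFA, ERBB4 and HBEGF held none of the 5 motifs. Such matches are descriptions of the letters, not binding sites.

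Compared with untreated cells, ERBB3, EGFR, EGF and BTC rose 1.31- to 1.49-fold with the antibodies, and ERBB2 rose 1.08- and 1.09-fold. Of the 6 tested genes, 5 rose, none fell and 1, AREG, did not pass the test with Herceptin (edgeR quasi-likelihood test, Benjamini-Hochberg adjusted p under 0.05 over 13536 genes), where 22.7% of all tested genes rose. The biosimilar gave the same count of 5 rises, 0 falls and 1 not passed, where 23.4% of all tested genes rose. Over all tested genes, falls were called for 23.8% and 24.6% and changes in either direction for 46.4% and 48.0%. In bulk RNA, a change in the share of cells that express a gene cannot be told apart from a change in its RNA per cell. The median log2 fold change of the 6 genes was 0.40 with Herceptin and 0.41 with the biosimilar, and over all 13536 genes it was -0.00052 and -0.0025. Both comparisons use the same 8 control libraries.

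ERBB2 encodes HER2, the target of both antibodies, and lies at chr17:39687914-39730426 on the plus strand of GRCh38. Its level ran from 3993 to 4336 CPM in control (median 4135), from 4405 to 4657 CPM under Herceptin (median 4494) and from 4349 to 4805 CPM under the biosimilar (median 4568). All treated libraries were above the highest control library, by a margin that was small beside the level itself. The share of all tested genes whose groups separate in this way was not counted, here or for the genes below. The group means were 4174 ± 116 CPM, 4512 ± 93.1 CPM and 4563 ± 158 CPM (SD, n = 8 each). ERBB2 rose 1.08-fold with Herceptin (log2 fold change 0.11, SE 0.0244, edgeR adjusted p = 1.92e-04). It rose 1.09-fold with the biosimilar (log2 0.13, SE 0.0244, edgeR adjusted p = 2.92e-05). Among the genes that rose, ranked by fold change, ERBB2 stood at place 2788 of 3068 with Herceptin and at place 2727 of 3162 with the biosimilar.

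ERBB3 encodes HER3, which binds neuregulins, has a weak kinase of its own and recruits PI3K when its partner phosphorylates it. The gene lies at chr12:56076799-56103505 on the plus strand. Its level ran from 150.4 to 169.3 CPM in control (median 159.8), from 212.3 to 223.9 CPM with Herceptin (median 214.2) and from 191.4 to 227.7 CPM with the biosimilar (median 216.4). No treated library overlapped the control libraries, and biosimilar replicate 6 was the lowest of the treated ones. The means were 159.9 ± 5.47 CPM in control, 216.1 ± 4.12 CPM with Herceptin and 214.6 ± 10.7 CPM with the biosimilar (SD, n = 8 each). ERBB3 rose 1.35-fold with Herceptin (log2 0.43, SE 0.0293, edgeR adjusted p = 1.29e-15) and 1.34-fold with the biosimilar (log2 0.42, SE 0.0294, edgeR adjusted p = 3.17e-15).

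EGFR encodes the receptor of EGF and lies at chr7:55019021-55211628 on the plus strand. Its level ran from 157.3 to 179.8 CPM in control (median 168), from 211 to 232 CPM with Herceptin (median 223) and from 176.2 to 246 CPM with the biosimilar (median 225.5). The Herceptin libraries were all above the control libraries, while 7 of 8 biosimilar libraries were above the highest control library and replicate 6 lay within the control range. The means were 168.2 ± 6.28 CPM, 222.8 ± 6.60 CPM and 222.4 ± 21.4 CPM (SD, n = 8 each), with the widest spread in the biosimilar group. EGFR rose 1.33-fold with Herceptin (log2 0.41, SE 0.0421, edgeR adjusted p = 1.07e-09) and 1.32-fold with the biosimilar (log2 0.40, SE 0.0423, edgeR adjusted p = 1.4e-09). Without biosimilar replicate 6 the latter log2 fold change was 0.45.

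ERBB4 encodes the receptor HER4, an active kinase that binds neuregulins, BTC, HBEGF and EREG, at chr2:211375717-212538841 on the minus strand. It had 4 to 14 expected counts a library in control, 3 to 13 under Herceptin and 5 to 12 under the biosimilar. The groups overlapped. In a fit of 33657 genes without a filter on low counts its log2 fold change was 0.21 with Herceptin (95% interval -0.39 to 0.80) and 0.40 with the biosimilar (-0.19 to 0.99), and neither passed (edgeR adjusted p = 0.72 and 0.449).

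**Figure D1:**
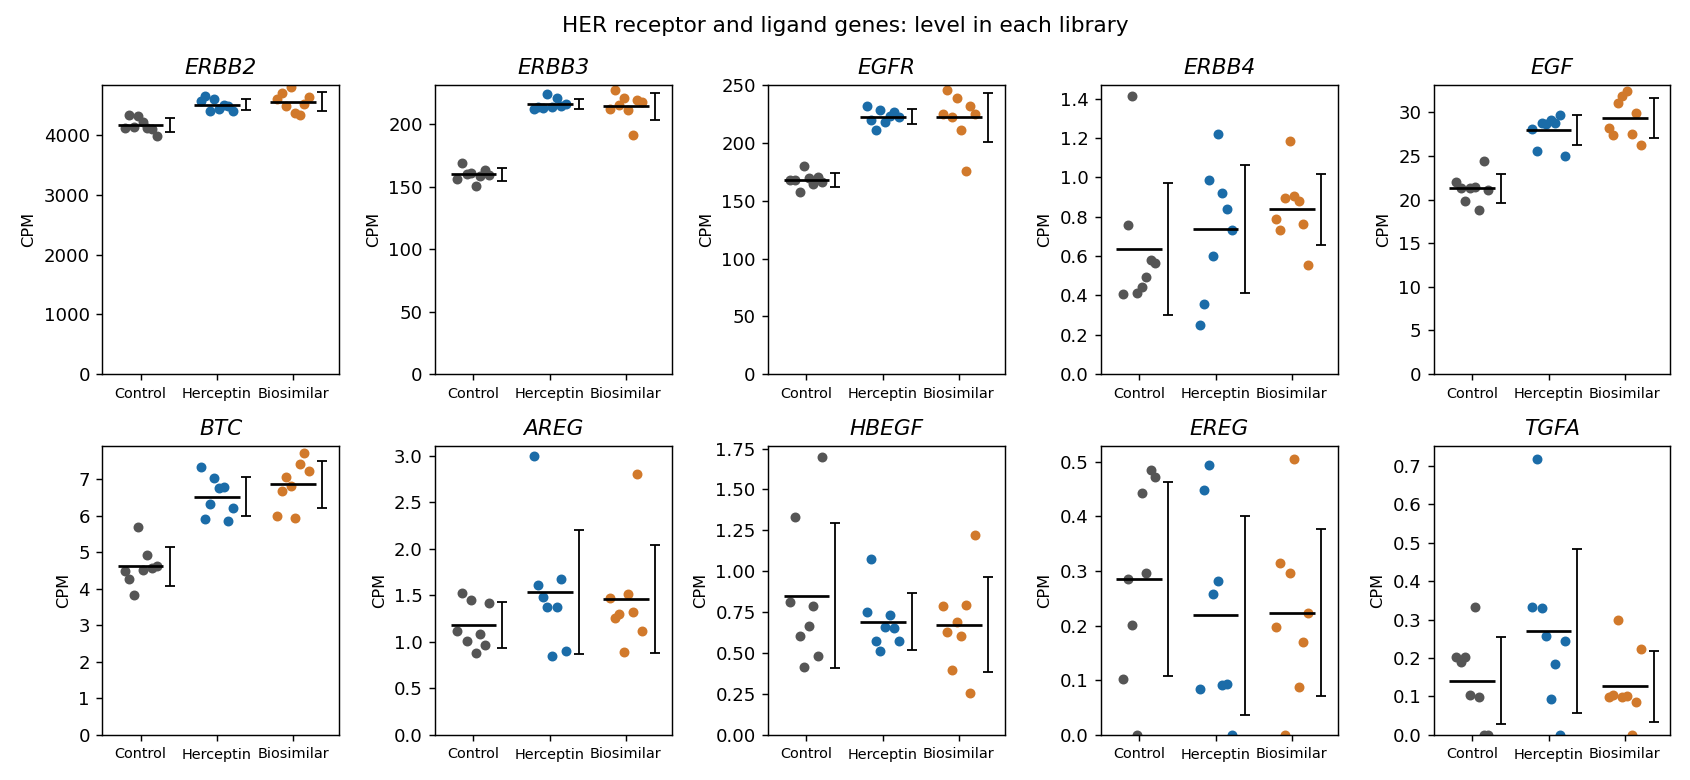
Level of each HER receptor and ligand gene in CPM (vertical axes, each starting at 0) in the 24 libraries of the control, Herceptin and biosimilar groups; points are libraries, lines are group means and bars are the SD. ERBB2, ERBB3, EGF and BTC have all treated libraries above all control libraries, and for EGFR biosimilar replicate 6 lies at 176.2 CPM, within the control range. The share of all tested genes that separate in this way was not counted.

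EGF, the founding ligand of EGFR, lies at chr4:109912884-110012266 on the plus strand and was the most abundant of the 6 ligand transcripts. Its level ran from 18.8 to 24.4 CPM in control (median 21.3), from 24.99 to 29.7 CPM with Herceptin (median 28.7) and from 26.2 to 32.5 CPM with the biosimilar (median 29.1). The treated libraries did not overlap the control libraries. The means were 21.3 ± 1.64 CPM, 28.0 ± 1.74 CPM and 29.3 ± 2.33 CPM (SD, n = 8 each). EGF rose 1.31-fold with Herceptin (log2 0.39, SE 0.0537, edgeR adjusted p = 8.4e-08) and 1.38-fold with the biosimilar (log2 0.46, SE 0.0541, edgeR adjusted p = 2.58e-09).

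BTC, a ligand of both EGFR and ERBB4, lies at chr4:74744759-74794686 on the minus strand. Its level ran from 3.83 to 5.70 CPM in control (median 4.55), from 5.87 to 7.34 CPM with Herceptin (median 6.54) and from 5.95 to 7.73 CPM with the biosimilar (median 6.94). The lowest treated library was just above the highest control library, so that the groups did not overlap but came close. The means were 4.62 ± 0.538 CPM, 6.53 ± 0.533 CPM and 6.86 ± 0.637 CPM (SD, n = 8 each). BTC rose 1.41-fold with Herceptin (log2 0.50, SE 0.0887, edgeR adjusted p = 9.27e-06) and 1.49-fold with the biosimilar (log2 0.57, SE 0.0894, edgeR adjusted p = 9.16e-07), the largest fold change among the rises of the 6 tested genes, with an interval that overlapped those of ERBB3, EGFR and EGF in both comparisons.

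AREG, a ligand of EGFR, lies at chr4:74445134-74455009 on the plus strand. Its level ran from 0.884 to 1.52 CPM in control (median 1.10), from 0.844 to 3.00 CPM with Herceptin (median 1.43) and from 0.888 to 2.80 CPM with the biosimilar (median 1.31). The means were 1.18 ± 0.244 CPM, 1.53 ± 0.667 CPM and 1.46 ± 0.578 CPM (SD, n = 8 each). The 3 groups overlapped, and in each treated group the highest value came from 1 library, replicate 1 with Herceptin and replicate 7 with the biosimilar. Its log2 fold change was 0.37 with Herceptin (95% interval -0.10 to 0.85, edgeR adjusted p = 0.194) and 0.32 with the biosimilar (-0.17 to 0.80, edgeR adjusted p = 0.283). Neither passed the test. Without the highest library of the treated group the values were 0.15 and 0.096.

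HBEGF, which binds EGFR and ERBB4 and also heparan sulphate, lies at chr5:140332843-140346631 on the minus strand. It had 4 to 18 expected counts a library in control, 6 to 12 under Herceptin and 3 to 11 under the biosimilar. EREG, a ligand of EGFR and ERBB4 at chr4:74365143-74388751 on the plus strand, had 0 to 5, 0 to 6 and 0 to 5 counts, and 1 library in each group had none. TGFA, a ligand of EGFR at chr2:70447280-70554193 on the minus strand, had 0 to 3, 0 to 8 and 0 to 3 counts, with 2, 1 and 1 libraries at 0. A count of 0 allowed a level of up to 0.245 to 0.334 CPM, depending on the library, counting error only. In the fit without a filter on low counts the log2 fold changes with Herceptin were -0.31 for HBEGF, -0.37 for EREG and 0.93 for TGFA, and with the biosimilar they were -0.37, -0.36 and -0.15. None of these passed, with edgeR adjusted p-values of 0.314 or more, and their 95% intervals spanned from -1.54 to 2.11. The EGF log2 fold changes of 0.39 with Herceptin and 0.46 with the biosimilar lay within the 95% intervals of EREG and TGFA. They lay above those of HBEGF, whose upper ends were 0.26 and 0.22. How often a change of that size would pass at these counts was not computed.

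**Figure D2:**
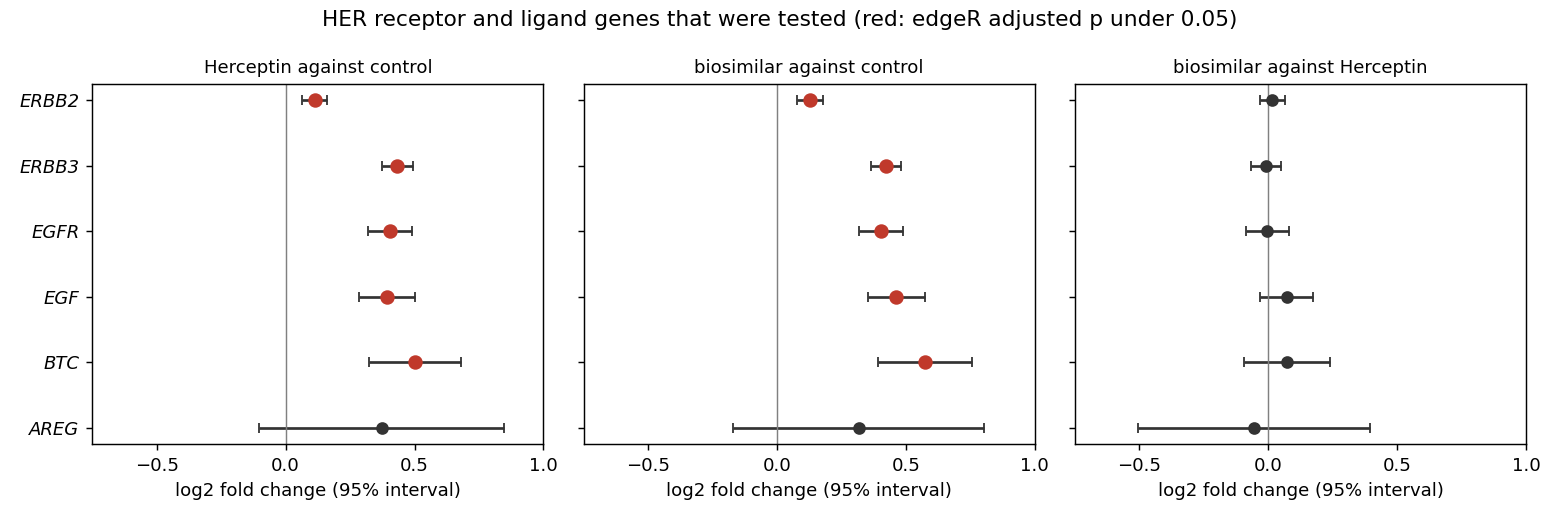
Log2 fold change (horizontal axes, on the log2 scale) of the 6 tested HER receptor and ligand genes for each antibody against control and for the biosimilar against Herceptin, with bars for the 95% interval; red points have an edgeR adjusted p under 0.05. The 5 red genes lie between 0.11 and 0.57 in the comparisons with control, and every interval of the biosimilar against Herceptin spans 0.

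To set genes beside each other, levels were computed per transcript length as TPM, the share of a transcript among all transcripts, scaled to a fixed sum. In control ERBB2 was at 1463 ± 69.7 TPM, ERBB3 at 54.6 ± 3.03 TPM, EGFR at 24.9 ± 1.35 TPM and EGF at 7.09 ± 0.607 TPM (SD, n = 8 each). BTC followed at 2.51 ± 0.33 TPM, AREG at 1.55 ± 0.342 TPM and HBEGF at 0.524 ± 0.269 TPM. EREG (0.085 TPM), ERBB4 (0.0726 TPM) and TGFA (0.0475 TPM) closed the order. The order of the first 7 was the same in the 3 groups. Neighbours whose libraries overlapped were BTC with AREG, and EREG, ERBB4 and TGFA among themselves, and the order of those last 3 differed between groups. In CPM, which does not divide by length, EGFR stood above ERBB3 in control, but its effective transcript length was 8882 bases against 3852 for ERBB3.

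**Figure D3:**
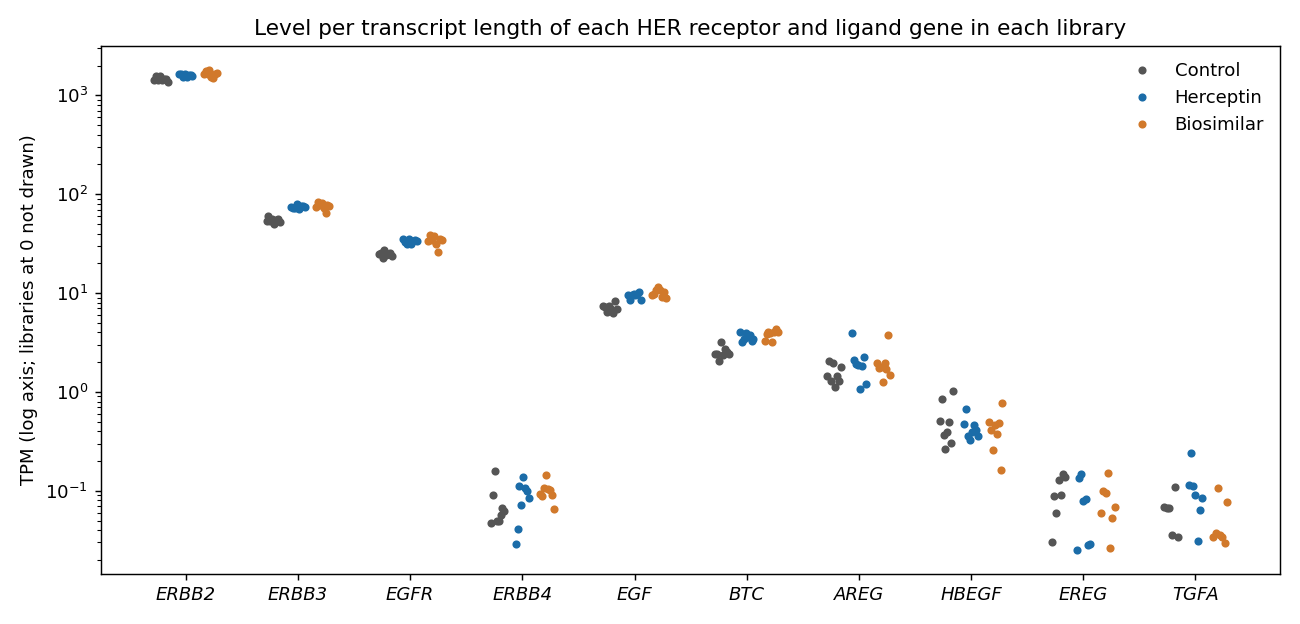
TPM of the 10 HER receptor and ligand genes (vertical log axis) in each library of the 3 groups; libraries at 0 are not drawn. ERBB2 lies above 1357 TPM in every library, while ERBB4, EREG and TGFA lie at or below 0.243 TPM.

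The mean TPM of ERBB2 was 26.8 times that of ERBB3 in control, 21.4 times under Herceptin and 21.8 times under the biosimilar. ERBB2 made up 94.8% ± 0.138 of the summed TPM of the 4 receptor genes in control, 93.7% ± 0.122 under Herceptin and 93.8% ± 0.256 under the biosimilar (SD, n = 8 each). ERBB3 made up 3.54% ± 0.127, 4.37% ± 0.10 and 4.30% ± 0.132, and EGFR 1.62% ± 0.0544, 1.96% ± 0.0492 and 1.93% ± 0.137. The ERBB2 transcript thus outnumbered the others in every library, and the shares of ERBB3 and EGFR were larger in the treated groups. Of the summed TPM of the 6 ligand genes, EGF made up 60.1% ± 3.68, 60.5% ± 3.92 and 61.4% ± 3.72, and BTC 21.2% ± 2.27, 23.0% ± 1.71 and 23.4% ± 2.23. These ligand shares differed between groups by about their spread or less. Summed ligand TPM was 11.8 ± 0.912 in control, 15.6 ± 1.36 under Herceptin and 16.4 ± 1.16 under the biosimilar, and no treated library was below the highest control library.

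The balance of receptor transcripts was compared within each library, which needs no scaling between libraries. ERBB3 had 3.83 ± 0.142 counts per 100 counts of ERBB2 in control (range 3.56 to 3.99), 4.79 ± 0.116 under Herceptin (4.60 to 4.90) and 4.70 ± 0.157 under the biosimilar (4.40 to 4.85; SD, n = 8 each). The treated libraries were all above the control libraries. The log2 ratio was higher by 0.32 with Herceptin and by 0.29 with the biosimilar (exact two-sided permutation test over 12870 regroupings, p = 0.000155 for each, the smallest that these samples can give, and 0.000466 after Benjamini-Hochberg adjustment over 9 tests). EGFR had 4.03 ± 0.138 counts per 100 of ERBB2 in control, 4.94 ± 0.128 under Herceptin and 4.87 ± 0.356 under the biosimilar. The log2 ratio of EGFR to ERBB2 was higher by 0.29 with Herceptin (exact permutation p = 0.000155, adjusted 0.000466) and by 0.27 with the biosimilar (exact permutation p = 0.000777, adjusted 0.00175), and biosimilar replicate 6, at 4.05, was the 1 treated library within the control range of 3.80 to 4.18. EGFR had 105.3 ± 5.29, 103.1 ± 3.17 and 103.4 ± 5.32 counts per 100 of ERBB3, and this ratio did not pass in any comparison (exact permutation p = 0.359, 0.516 and 0.939).

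**Figure D4:**
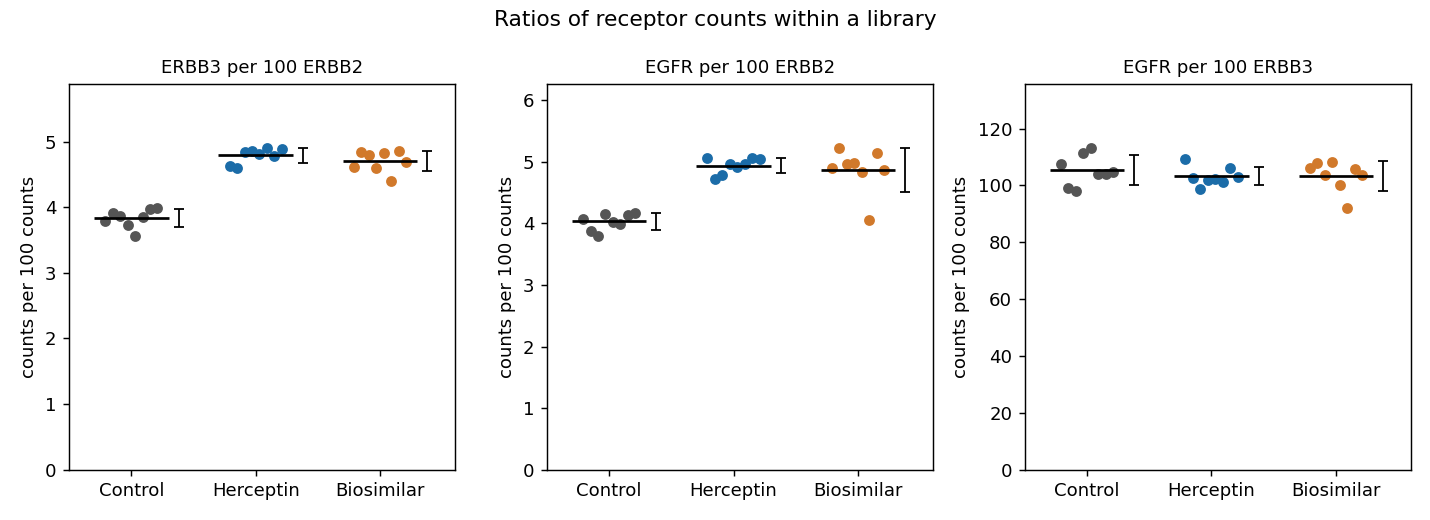
Counts of ERBB3 and of EGFR per 100 counts of ERBB2, and of EGFR per 100 counts of ERBB3 (vertical axes from 0), in each library; lines are group means and bars are the SD. Both ratios to ERBB2 are higher in the treated groups except in biosimilar replicate 6 for EGFR (4.05), and the 3 groups overlap for EGFR to ERBB3.

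Between the biosimilar and Herceptin, 0 of the 6 tested genes passed in edgeR, and none had an unadjusted p under 0.05. limma-voom and DESeq2 also called none of the 6. Over all 13536 genes edgeR called 0.00% in either direction, with 722 at an unadjusted p under 0.05 (1262 without biosimilar replicate 6, still with 0 calls), limma-voom called 0 and DESeq2 called 8. The 95% interval of the ratio of biosimilar to Herceptin ran from 0.977 to 1.05 for ERBB2, from 0.954 to 1.03 for ERBB3 and from 0.941 to 1.06 for EGFR. It ran from 0.978 to 1.13 for EGF, from 0.938 to 1.18 for BTC and from 0.704 to 1.32 for AREG. The 6 adjusted p-values lay between 0.944 and 0.996. The interval was narrowest for ERBB2 and widest for AREG, and differences within these bounds could not be told from none. The ratio of ERBB3 to ERBB2 differed by -0.027 on the log2 scale between the antibodies (exact permutation p = 0.226, adjusted 0.406) and that of EGFR to ERBB2 by -0.024 (exact permutation p = 0.734, adjusted 0.826). Among the genes too low to test with the rest, TGFA had the smallest p of this comparison, with a log2 difference of -1.08 in the fit without a filter (95% interval -2.30 to 0.14, edgeR adjusted p = 0.707).

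Other genes of the pathway were taken from 4 lists. Of 14 genes of ligand shedding 12 were tested, of which 7 passed as higher than in control and none as lower, for each of the antibodies, beside 22.7% and 23.4% risen and 23.8% and 24.6% fallen over all tested genes. ADAM9, a membrane metalloprotease, was at 232 ± 8.15 CPM in control, 280 ± 9.54 CPM with Herceptin and 286 ± 12.7 CPM with the biosimilar (log2 0.27 and 0.30, edgeR adjusted p = 5.64e-10 and 3.92e-11). ADAM10, which cuts EGF and BTC from their precursors, was at 183 ± 7.54, 215 ± 7.53 and 219 ± 9.85 CPM (log2 0.23 and 0.26, edgeR adjusted p = 5.06e-08 and 3.83e-09). BACE1, an aspartic protease that cuts neuregulin 1, was at 12.5 ± 0.721, 16.8 ± 1.84 and 17.5 ± 2.02 CPM (log2 0.43 and 0.48). These counts are uncertain, being fractional in 95.8% of libraries, which marks reads shared out among more than 1 gene. ADAM17, the main sheddase of AREG, HBEGF, EREG and TGFA, was named after its values were seen and did not pass (log2 -0.02 and 0.01, edgeR adjusted p = 0.697 and 0.868). ADAM17 counts were fractional in 100% of libraries and are uncertain for the same reason as those of BACE1. The median log2 fold change of this list was 0.14 with Herceptin and 0.15 with the biosimilar, where the medians of all tested genes were -0.00052 and -0.0025.

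Of 29 adaptors and effectors 26 were tested, of which 9 rose under Herceptin against 3 that fell, and 9 rose under the biosimilar against 5 that fell. Over all tested genes 46.4% and 48.0% changed in either direction, and the 12 of 26 changed under Herceptin and 14 of 26 under the biosimilar were near that background. GRB7, an adaptor of HER2 encoded in the same amplified region, was at 263 ± 7.77 CPM in control, 353 ± 7.79 CPM with Herceptin and 351 ± 11.9 CPM with the biosimilar (log2 0.42 in each, edgeR adjusted p = 6.7e-17 and 1.32e-16). SOS2, an exchange factor of RAS, was at 48.5 ± 2.07, 60.4 ± 3.16 and 62.6 ± 3.33 CPM (log2 0.31 and 0.37, edgeR adjusted p = 8.8e-09 and 3.1e-10). NCK2, an adaptor of the cytoskeleton, had log2 fold changes of 0.25 and 0.25 (edgeR adjusted p = 1.16e-06 and 8.95e-07), with fractional counts in 54.2% of libraries. The list's median was 0.026 and 0.035.

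Of 22 negative regulators, phosphatases and genes of receptor turnover all 22 were tested, of which 7 rose under Herceptin against 3 that fell, and 8 rose under the biosimilar against 2 that fell. The 10 of 22 changed in each comparison were near the background of 46.4% and 48.0%. PTPN12, a tyrosine phosphatase, was at 136 ± 4.44 CPM in control, 152 ± 2.42 CPM with Herceptin and 161 ± 4.79 CPM with the biosimilar (log2 0.16 and 0.24, edgeR adjusted p = 2.61e-06 and 7.23e-10). EPS15, an endocytic adaptor of EGFR, was at 103 ± 2.39, 117 ± 5.23 and 122 ± 2.94 CPM (log2 0.18 and 0.24, edgeR adjusted p = 1.56e-06 and 7.13e-09). STUB1, an E3 ligase of HER2, was at 76.4 ± 3.21, 63.7 ± 1.45 and 63.0 ± 4.49 CPM and fell (log2 -0.26 and -0.28, edgeR adjusted p = 1.58e-07 and 5.49e-08), with fractional counts in 95.8% of libraries. The list's median was 0.039 and 0.055. Of 5 other HER ligands, NRG1, NRG3 and NRG4 were too low to test, and NRG2 and EPGN did not pass with either antibody. NRG2, a neuregulin, was at 2.68 ± 0.511, 2.72 ± 0.356 and 2.42 ± 0.299 CPM, and EPGN, epigen, at 3.58 ± 0.408, 4.15 ± 0.81 and 3.46 ± 0.572 CPM. Between the biosimilar and Herceptin none of the tested genes of these 4 lists passed in edgeR.

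**Figure D5:**
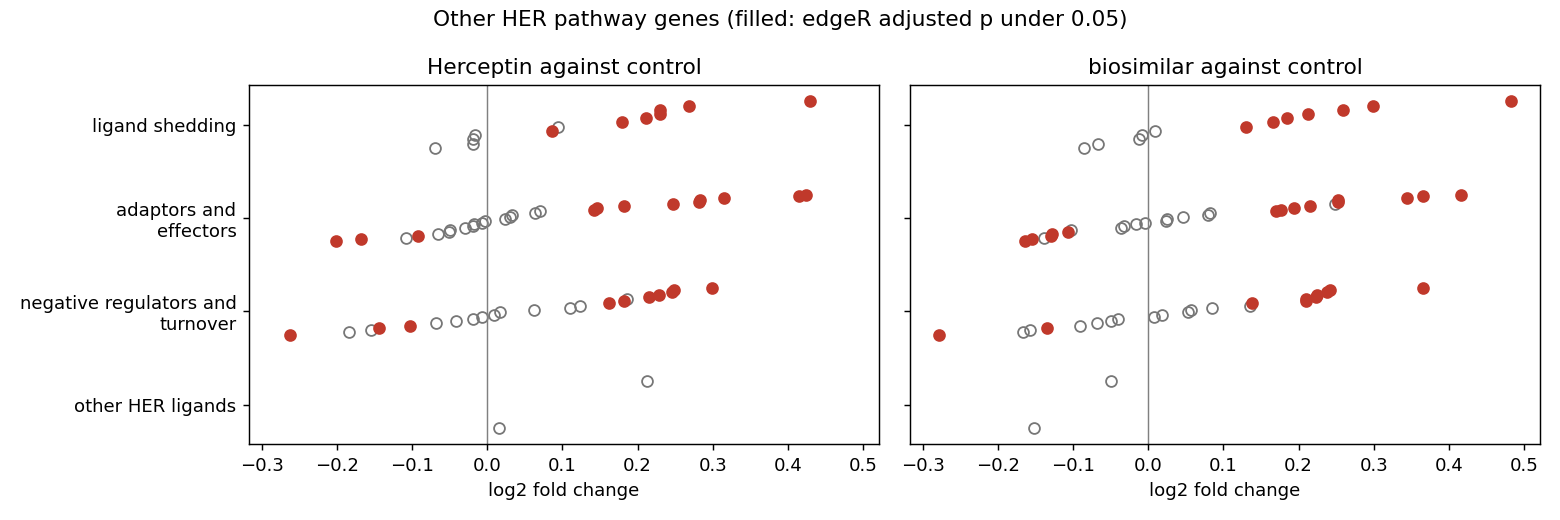
Log2 fold change (horizontal axes, on the log2 scale) against control of each tested gene of 4 lists of other HER pathway genes, with filled points for an edgeR adjusted p under 0.05. In ligand shedding the 7 filled points lie above 0 in each panel, while adaptors and negative regulators have filled points on both sides.

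Genes were also compared by their change from control over the 24 libraries, whatever their level. The measure was the root mean square difference between genes in log2 CPM minus the control mean, among 9260 genes with a mean of at least 10 CPM. The genes most like ERBB2 were LRP10 (0.0354), TRIM44 (0.0356) and NUCB1 (0.0364), where the median over all genes compared was 0.173. Those most like ERBB3 were BACE2 (0.0433), ATP9A (0.0467) and TP53INP2 (0.0475), with a median of 0.375. ATP9A was also first for EGFR (0.0431), before TACC2 (0.0564) and ZNFX1 (0.0592), with a median of 0.361. ATP9A was at 236 CPM in control, 313 CPM with Herceptin and 315 CPM with the biosimilar. EGF had the least close neighbours of the 4 genes, ADGRG6 (0.0898), NEBL (0.0939) and PDLIM5 (0.095), with a median of 0.384. EGF also had the lowest counts of the 4 genes. Counting error adds to this measure, and its part was not tested.

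Some counts of these genes share sequence with others in the annotation. ERBB2 counts were fractional in all 24 libraries and EGFR counts in 54.2% of them, while the other 8 genes had whole counts throughout. PGAP3 and MIEN1 overlap ERBB2 on the opposite strand, and the strand setting of the counting is not given in the sources used here, so that their reads cannot be told apart from those of ERBB2 with certainty. PGAP3 had log2 fold changes of 0.05 and 0.08 (edgeR adjusted p = 0.169 and 0.0351) and MIEN1 of -0.0026 and 0.0036 (0.946 and 0.924). EGFR-AS1, antisense to EGFR, had at most 5.01 counts in a library. AC034102.2 at chr12:56101331-56109289 overlaps the end of ERBB3 on the same strand and had 0 to 30.49 counts in control, 0 to 128.56 under Herceptin and 1.36 to 86.71 with the biosimilar. Its fitted log2 fold change was 1.71 with Herceptin (SE 0.88, edgeR adjusted p = 0.0981) and 2.04 with the biosimilar (SE 0.873, edgeR adjusted p = 0.0432), so that it passed only with the biosimilar. Its counts varied widely within groups, with 4 control and 2 Herceptin libraries at 0. AC034102.2 counts were fractional in 70.8% of libraries, while ERBB3 counts were whole in all 24. With the AC034102.2 counts added, the log2 ratio of the ERBB3 means to control was 0.45 for either antibody, beside fitted values of 0.43 and 0.42 without them. Whether the genes shared reads was not tested.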

How the data were processed

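RNA from 24 libraries of SKBR3 cells was sequenced as 126-base paired ends from a stranded kit, per the labels' protocols. The authors deposited expected counts per gene, made with FastQC, STAR and RSEM on GRCh38.p12 per the submitters' processing notes; RSEM shares out reads that map to several genes, and 9.29% of the deposited values were not whole (tolerance 0.001). Neither the annotation release nor any counting setting is stated in the sources used here. Expected counts were rounded to whole numbers. Genes were filtered with filterByExpr, and all 24 libraries were fitted as 3 groups with edgeR (version 4.0.16 under R 4.3.3; alternatives used DESeq2 1.42.0 and limma 3.58.1), TMM factors, the quasi-likelihood F test, a prior count of 0.125 and Benjamini-Hochberg adjustment at 0.05. Intervals are 95% Wald intervals from that fit. TPM used the deposited effective length, 1 value per gene for the whole series. Gene coordinates are from GENCODE v29 on GRCh38, and promoter sequences from RefSeq on GRCh38.p14. Within groups the 84 pairs of libraries differed by a chi-square per degree of freedom of 1.50 to 7.30, so none was treated as a library deposited again; whether the libraries are independent cultures is not shown by this. The model was also tested on simulated data, and the outcome of that is not reported here. Named genes were all 10 HER genes, up to 3 of each list by the smallest p, and the 3 genes most like ERBB2, ERBB3, EGFR and EGF. The genes and lists were chosen with earlier results of these data known.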

Additional observations from a re-analysis of the deposited data

Results flagged for a closer look

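Of 39 groups of 8 values examined, 7 held a library whose gap to its nearest neighbour, divided by the range of the group, was above Dixon's critical value of 0.526. Chance marks about 1 in 20 groups. Biosimilar replicate 6 was marked for ERBB3, at 191.4 CPM with the nearest library at 211.3 CPM, and for the ratio of EGFR to ERBB2, at 4.05 counts per 100 with the nearest at 4.83. AREG was marked in Herceptin replicate 1, at 3.00 CPM with the nearest at 1.68 CPM, and in biosimilar replicate 7, at 2.80 CPM with the nearest at 1.51 CPM. The other marks fell on genes near the lower limit of counting. ERBB4 was at 1.41 CPM in control replicate 3, TGFA at 0.716 CPM and HBEGF at 1.07 CPM in Herceptin replicate 2.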

How the results depend on the processing

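Each result was recomputed under 10 alternatives for the fold changes (other scaling factors, other filters, limma-voom, DESeq2, fits of 2 groups, a replicate block and, chosen after seeing the data, edgeR's newer quasi-likelihood method) and 2 for the ratios, and again without each of the 24 libraries. Under all of these the count of HER genes that rose stayed at 5 with Herceptin, 5 with the biosimilar and 0 between the antibodies, with 0 falls, and no fold change or ratio changed its side of the threshold. Over the 10 alternatives ERBB2 ranged from 0.10 to 0.12 with Herceptin and from 0.12 to 0.14 with the biosimilar on the log2 scale. With 1 library left out, EGFR under the biosimilar lay between 0.38 and 0.45, the highest without biosimilar replicate 6. AREG lay between 0.15, without Herceptin replicate 1, and 0.46 with Herceptin, and between 0.096, without biosimilar replicate 7, and 0.40 with the biosimilar. The difference between the antibodies, which did not pass, changed sign without 1 library in 5 fits for EGFR, 2 for AREG and 1 for ERBB3.

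Same-numbered libraries were at most weakly correlated, and whether the replicate numbers mark a shared factor was not tested. Correlations of the deviations of same-numbered libraries ran from -0.0902 to 0.108 over 24 pairs, 1 of them over 0.1, and 7 of 24 libraries correlated best with their own number. The best match was sought among the libraries of the other groups, 8 in each, of which 1 in each bore that number. The count to be had by chance was not computed. With the replicate block ERBB3 was at 0.43 and 0.42 against control and ERBB2 at 0.11 and 0.13, and over all genes 0 rises and 14 falls were called for the biosimilar against Herceptin. Without a filter 1 rise and 11 falls were called there, and with DESeq2 0 and 8; the cause was not tested. Depth limits ERBB4, HBEGF, EREG and TGFA, which had at most 18 expected counts in a library.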
